A study of Rattus norvegicus with 9 samples.

Results

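The genes described here carry out macroautophagy, the pathway that encloses cytoplasm in a double membrane and delivers it to the lysosome, and mitophagy, its form that removes mitochondria. They were chosen by name: every non-control probe on the array whose gene name began with Atg, Ulk, Map1lc3, Gabarap or Wipi in the standard form, or was 1 of a fixed set that ran from Becn1 and Sqstm1 to Bnip3, Pink1, Lamp1 and Tfeb. This gave 63 of 41012 probes, standing for 37 genes. Of these probes 60 passed the filter on dim signal, and 36 of the 37 genes were tested, among 22108 genes in all. Atg14, a subunit of the beclin complex, had a single probe that was well above background on 4 of 9 arrays and was not tested.

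RNA came from cultured pulmonary arterial smooth muscle cells of male SD rats, labelled generation 4, on 9 1-colour Agilent arrays in 3 groups of 3: normoxia, hypoxia, and hypoxia with quercetin, a plant flavonol. By the labels' protocols all cells went 24 h without serum and then 24 h in medium with 10% serum and either quercetin or 0.1% DMSO, the vehicle; hypoxia was 1% oxygen with 5% carbon dioxide at 37 °C. The quercetin dose and the length of hypoxia are not given in the sources used here, and nothing says that replicates were separate cultures, so p-values rest on a spread among these samples that may be technical. The comparisons share arrays: the hypoxia arrays serve in the first 2, and the normoxia arrays in the first and last.

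As background, autophagy starts when the ULK kinase complex, with Atg13, is released from restraint by the nutrient sensor mTOR. The beclin lipid kinase complex then marks a membrane, Wipi proteins read that mark, and Atg9 and Atg2 proteins supply lipid. Enzymes that resemble the ubiquitin system attach the small ATG8 proteins, which comprise the LC3 and GABARAP branches, to the growing membrane, where receptors such as Sqstm1 and Optn bring cargo. Mitochondria are marked either through the kinase Pink1 or by receptors in their outer membrane, among them Bnip3, Bnip3l and Fundc1. Low oxygen induces Bnip3 through the hypoxia-inducible factors in many cell types.

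Promoters are shown because the members moved in opposite directions under hypoxia. RefSeq promoter sequences (GRCr8) were matched to 31 of the 37 genes, and Atg9a, Becn1, Bnip3l, Fundc1 and Map1lc3a were among those not matched. In the 250 bases before the start, the letters ACGTG or GCGTG, searched on both strands and together the core of the hypoxia response element, mark the Bnip3 and Wipi1 stretches below, and ACGTG also lies inside CACGTG, an E-box core that Tfeb and related factors recognise. Capitals mark the matches, and each stretch is written 5′ to 3′ on the gene's strand, which is minus for all 3.
Bnip3 (chr1:203155033-203155082, bases 120 to 71 before the start): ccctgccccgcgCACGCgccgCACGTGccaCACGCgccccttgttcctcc
Wipi1 (chr10:95079354-95079413, bases 120 to 61 before the start): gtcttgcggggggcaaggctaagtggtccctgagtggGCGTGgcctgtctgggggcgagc
Lamp1 (chr16:83075064-83075263, bases 200 to 1 before the start): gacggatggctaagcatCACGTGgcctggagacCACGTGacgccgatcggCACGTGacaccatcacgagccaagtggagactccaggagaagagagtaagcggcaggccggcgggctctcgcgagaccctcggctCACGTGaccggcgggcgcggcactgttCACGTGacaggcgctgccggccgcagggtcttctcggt
Bnip3 held 1 CACGTG flanked by 2 matches to GCGTG within 50 bases, Wipi1 held 1 GCGTG, and Lamp1 held 5 copies of CACGTG. Gabarapl1 and Atg13, whose signals were also higher in hypoxia, had no match to ACGTG or GCGTG in their 250 bases. Of the other matched members higher in hypoxia, Atg12 had 1 match to each and Lamp2 had 2 to GCGTG. Atg4b, Tfeb and Ulk2 had 1 match to GCGTG, and Ulk3 had 1 to ACGTG. Atg16l2, Atg7, Gabarap, Nbr1 and Ulk1 had none to either. Of the members lower in hypoxia, Lamp1 had 10 matches to ACGTG, Pink1 4 and Gabarapl2 1, with each CACGTG counted on both strands. Atg2a had 2 matches to GCGTG, Atg16l1 had 1, and Uvrag had none to either. A link of these letters to the direction of change was not tested. Among the 31 matched members 11 held ACGTG (35.5%, against 16.6% of all 33469 promoters of the same length), 15 held GCGTG (48.4% against 25.9%) and 5 held CACGTG (16.1% against 5.59%). Those promoters are all in the annotation, not only those of genes tested here. They were not matched to the members in base composition, so the shares do not show enrichment. For the CLEAR motif, known from lysosomal gene promoters, only 1 exact form was searched, a palindrome that extends CACGTG on both sides. That exact form was in 0 of the 31, Lamp1 included, and in 0.203% of all promoters. Forms that differ from it in any letter were not searched. The count therefore does not show that Lamp1 or the other members lack the motif. A match describes the letters and is not a measured site.

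Values are log2 processed intensities minus the array's 75th percentile, so 0 is the level of that percentile and 1 unit is a doubling; changes are differences of group means ± standard error from limma fitted over all 9 arrays, with Benjamini-Hochberg adjusted p over all genes tested and 0.05 as the threshold. Levels of different probes are not comparable. The 75th percentile itself was 627 to 640 in normoxia and 439 to 504 in the hypoxic groups, and between 53.0% and 74.3% of probes were well above background on an array. Of the 3 slides, 1 carried normoxia replicates 1 and 2 and had an earlier scan day, 1 carried normoxia replicate 3 beside the hypoxia arrays, and 1 carried only quercetin arrays; an effect of the last slide cannot be told apart from that of quercetin.

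In bulk RNA, fewer cells of a type and less RNA per cell cannot be told apart, and the marker genes of several cell types moved with the groups. Of 12 smooth muscle markers 10 were tested, and the log2 of their summed signal lay between 7.56 and 8.32 on the normoxia arrays, between 8.64 and 8.72 on the hypoxia arrays, and lowest with quercetin, at 7.13 to 7.40; Acta2 and Synpo2 had no matched probe. The same sum over 5 tested epithelial markers of 9 was 1.95 to 2.52, 5.31 to 5.56 and 2.92 to 3.19 in that order, while Epcam, Cdh1 and Krt19 were well above background on none of the arrays. For 10 fibroblast markers it was 9.79 to 9.86, 10.22 to 10.36 and 9.87 to 9.97, a sum led by abundant genes such as Col1a1; by gene, 4 were higher and 4 lower in hypoxia, and 6 were lower and none higher with quercetin against hypoxia. For 3 endothelial markers of 8 it was 2.68 to 3.09, 3.25 to 3.38 and 2.55 to 2.79, and for 7 leukocyte markers of 11 it was 2.30 to 2.58, 2.18 to 2.30 and 1.81 to 1.85, although by gene 4 of the 7 leukocyte markers were higher and 1 lower in hypoxia, and 1 higher and 4 lower with quercetin against hypoxia. Pecam1, Tek, Tie1, Cd3e and Itgam were well above background on none of the arrays. The part of these markers in the results below was not tested.

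In hypoxia against normoxia, 17 autophagy and mitophagy genes were higher, 9 lower and 10 did not pass. That is 72.2% of those tested, beside 64.2% of all genes (35.3% higher and 28.9% lower), and the median change was 0.20, beside 0.10 for all genes. With quercetin against hypoxia 9 were higher, 12 lower and 15 did not pass (58.3%, beside 58.4% of all genes; 26.9% higher and 31.5% lower), with a median of -0.08, the same as for all genes. With quercetin against normoxia 12 were higher, 5 lower and 19 did not pass (47.2%, beside 44.3%; 23.0% higher and 21.3% lower), with a median of 0.21 against 0.04. The shares that passed in either direction are close to the background in each comparison. Higher calls alone were a larger share than in all genes in hypoxia (17 of 36) and with quercetin against normoxia (12 of 36). The list was not tested. Groups did not overlap for 27, 27 and 21 members, where all genes gave 71.7%, 71.1% and 53.6%. Changes of at least 2-fold were passed by 6, 2 and 2 of the 36 members, smaller shares than the 24.1%, 20.6% and 12.9% of all genes.

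The direction of the smaller changes depended on the scaling. Scaled to 6 spike-in probes, the median change over all genes went from 0.10 to -0.41 in hypoxia against normoxia, from -0.08 to 0.02 with quercetin against hypoxia and from 0.04 to -0.38 with quercetin against normoxia. Under that scaling 5 members were higher in hypoxia (Atg13, Bnip3, Fundc1, Gabarapl1 and Wipi1) and 18 lower, and 3 were higher and 16 lower with quercetin against normoxia. Of all 22108 genes scaled in that way, 2625 were higher and 10781 lower in hypoxia, and 1599 and 9952 with quercetin against normoxia. With normexp background correction 9 of the 26 calls in hypoxia were kept, 12 of 21 with quercetin against hypoxia and 3 of 17 with quercetin against normoxia. Those kept in hypoxia were Atg12, Atg13, Atg16l2, Atg4b, Becn1, Bnip3, Fundc1, Gabarapl1 and Wipi1. With quercetin against hypoxia they were Atg2a, Becn1, Bnip3l and Lamp1, all higher, and Atg10, Atg12, Atg13, Atg16l2, Atg4b, Fundc1, Gabarapl1 and Wipi1, all lower. The 3 kept with quercetin against normoxia were Atg10, Atg13 and Bnip3l. The other calls in these counts did not pass with that correction. With slide as a block, which sets the hypoxia arrays against normoxia replicate 3 alone, 12 of the 26 calls were kept.

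**Figure D1:**
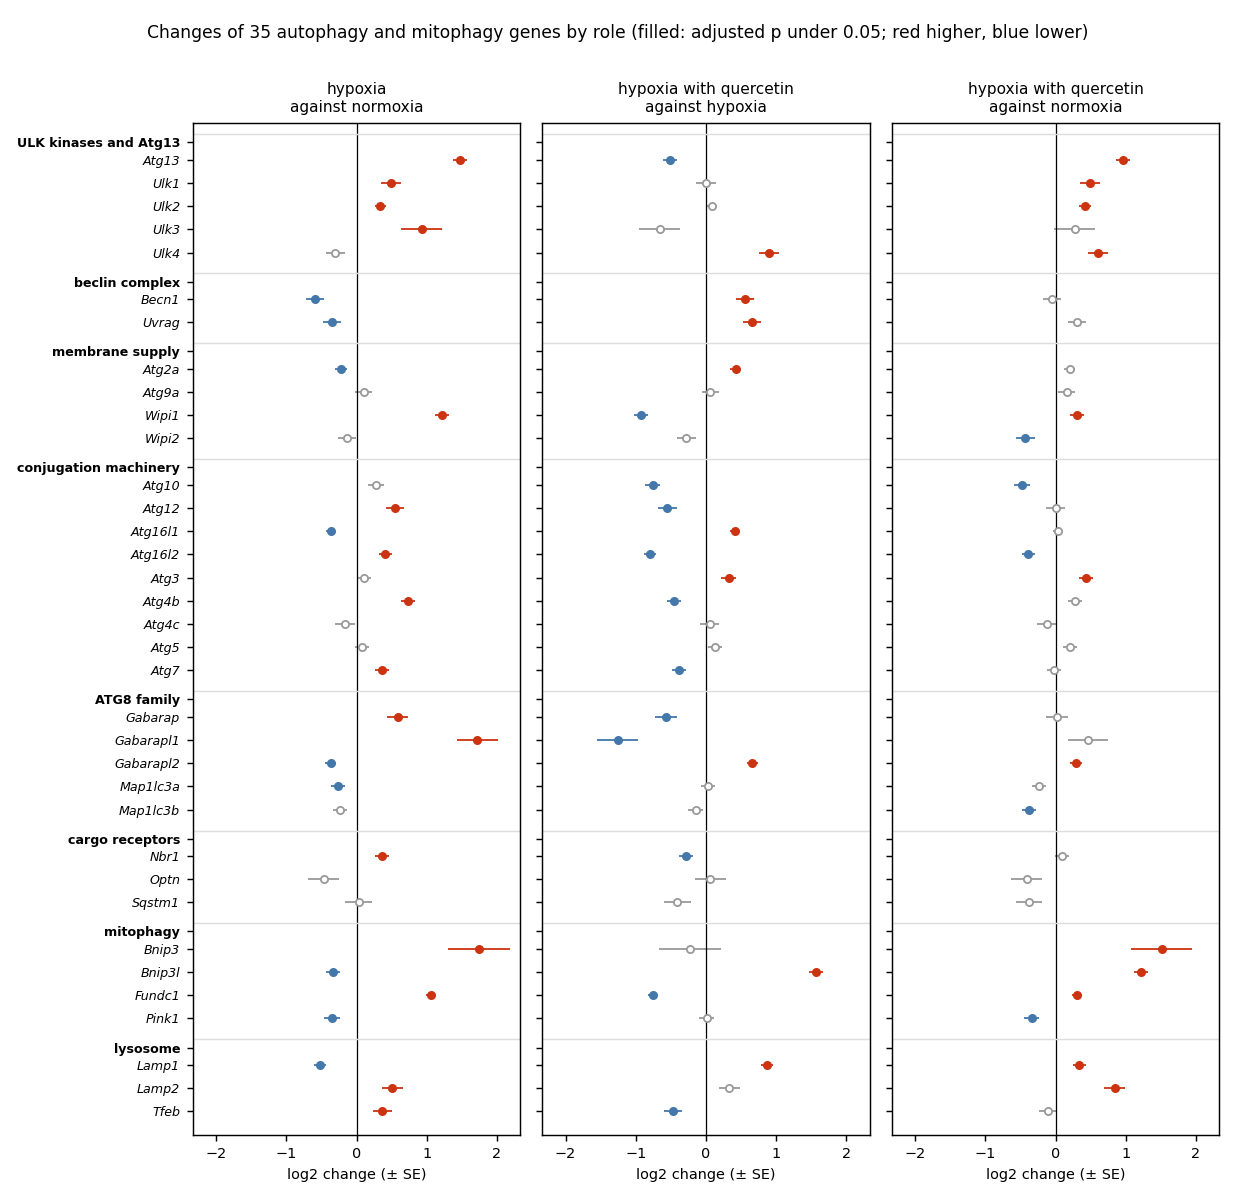
Change of 35 of the 36 tested genes (log2, horizontal axis, ± standard error) in the 3 comparisons, ordered by role; filled points passed an adjusted p of 0.05, red higher and blue lower. The mitophagy receptors and Gabarapl1 span the widest range, from a rise of 1.74 for Bnip3 in hypoxia to a fall of 1.26 for Gabarapl1 with quercetin, while the cargo receptors Sqstm1 and Optn pass in none of the comparisons on the probe plotted.

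The outer mitochondrial membrane receptors did not move as 1 group. Bnip3, a receptor that binds LC3 and the GABARAP proteins, read 5.41, 3.56 and 5.42 in normoxia, 6.49, 6.52 and 6.59 in hypoxia and 6.16, 6.38 and 6.38 with quercetin. All hypoxic arrays, with or without quercetin, lay above the normoxia arrays, and normoxia replicate 2 lay far below its group. Bnip3 rose by 1.74 ± 0.44 (adjusted p = 0.0083) in hypoxia, changed by -0.23 ± 0.44 (adjusted p = 0.67) with quercetin against hypoxia, and rose by 1.51 ± 0.44 (adjusted p = 0.023) with quercetin against normoxia. With slide as a block the hypoxia change was 1.12 (adjusted p = 0.15) and, with scan day as a block, that of quercetin against normoxia 0.89 (0.29). Without quercetin replicate 2 or 3 the latter was 1.47 and did not pass (0.061 and 0.065), and without normoxia replicate 2 the difference between quercetin and hypoxia of -0.23 passed (0.043).

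Bnip3l, the close relative of Bnip3 also called Nix, behaved differently on its probe (rn4 chr15:46516681-46516740). It read 5.65, 5.43 and 5.62 in normoxia, 5.10, 5.28 and 5.32 in hypoxia and 6.80, 6.77 and 6.81 with quercetin. The quercetin arrays were the highest and lay within a narrow range, and the hypoxia arrays were the lowest. Bnip3l fell by 0.33 ± 0.10 (adjusted p = 0.015) in hypoxia and rose by 1.56 ± 0.10 (adjusted p = 9.1e-06) with quercetin against hypoxia, a 2.95-fold difference and the largest increase among the members in that comparison. Against normoxia the rise was 1.22 ± 0.10 (adjusted p = 4.3e-05). The fall in hypoxia did not pass with slide as a block (-0.39, adjusted p = 0.055) or without normoxia replicate 1 (-0.29, 0.055) or hypoxia replicate 1 (-0.27, 0.062).

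Fundc1, a further outer-membrane receptor, read 0.38, 0.36 and 0.33 in normoxia, 1.37, 1.45 and 1.44 in hypoxia and 0.68, 0.62 and 0.68 with quercetin. No groups overlapped, and quercetin lay between the other two. It rose by 1.06 ± 0.07 (adjusted p = 1.0e-05) in hypoxia, fell by 0.76 ± 0.07 (adjusted p = 6.0e-05) with quercetin against hypoxia and stayed above normoxia by 0.30 ± 0.07 (adjusted p = 0.01), a difference that was -0.12 (0.38) scaled to spike-ins and 0.33 (0.055) with scan day as a block. Its other 2 probes were much dimmer and changed by 0.04 (0.79) and 0.40 (0.031) in hypoxia and by 0.30 (0.085) and -0.17 (0.31) with quercetin against hypoxia.

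Pink1, the kinase that marks depolarised mitochondria, read 2.99, 2.60 and 2.86 in normoxia, 2.45, 2.40 and 2.55 in hypoxia and 2.53, 2.48 and 2.44 with quercetin. Both hypoxic groups lay below normoxia and overlapped each other. It fell by 0.35 ± 0.11 (adjusted p = 0.024) in hypoxia, changed by 0.01 ± 0.11 (adjusted p = 0.93) with quercetin against hypoxia and fell by 0.34 ± 0.11 (adjusted p = 0.039) against normoxia. The fall in hypoxia did not pass with slide as a block (-0.39, 0.087), nor without normoxia replicate 1 or 3 or hypoxia replicate 1 or 2 (-0.26 to -0.34, adjusted p from 0.059 to 0.084). The fall with quercetin against normoxia did not pass when 1 array was left out, unless that array was normoxia replicate 2 (-0.25 to -0.36, adjusted p from 0.053 to 0.13).

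**Figure D2:**
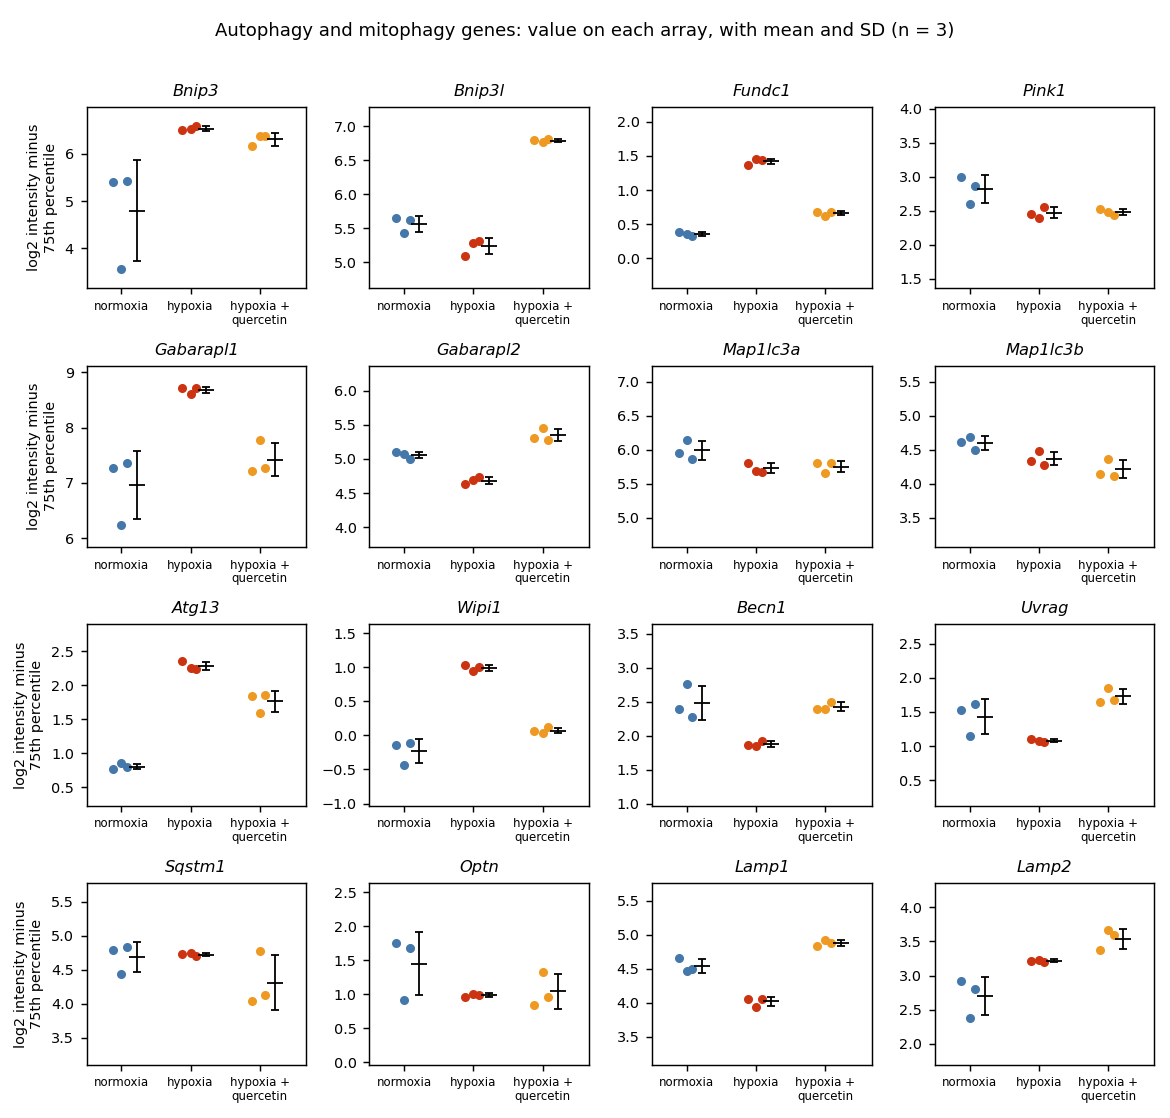
Value of 16 genes on each of the 9 arrays (log2 intensity minus the array's 75th percentile, vertical axis, whose range differs between panels), with the mean and SD of each group of 3. Bnip3l, Lamp1 and Gabarapl2 are lowest in hypoxia and highest with quercetin, while Fundc1, Wipi1, Atg13 and Gabarapl1 are highest in hypoxia; normoxia replicate 2 lies apart for Bnip3, Gabarapl1 and Optn.

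Among the ULK family genes and Atg13, 4 of 5 were higher in hypoxia and none lower, beside 35.3% and 28.9% of all genes. Their median change was 0.49, which became -0.02 scaled to spike-ins. Atg13, the scaffold that joins the ULK kinases to the rest of their complex, read 0.77, 0.85 and 0.79 in normoxia, 2.35, 2.25 and 2.24 in hypoxia and 1.84, 1.59 and 1.86 with quercetin. The 3 groups were fully separate, with quercetin between normoxia and hypoxia. Atg13 rose by 1.48 ± 0.10 (adjusted p = 8.0e-06), a 2.79-fold difference, fell by 0.52 ± 0.10 (adjusted p = 0.0021) with quercetin and stayed 0.96 ± 0.10 (adjusted p = 1.4e-04) above normoxia. A further Atg13 probe gave 1.55 (1.6e-04), -0.47 (0.059) and 1.08 (0.0021).

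Ulk1, the kinase itself, was dim, at -3.29, -3.75 and -3.34 in normoxia, -2.84, -2.98 and -3.08 in hypoxia and -3.13, -2.82 and -2.97 with quercetin. Both hypoxic groups lay above normoxia. It rose by 0.49 ± 0.14 (adjusted p = 0.017) in hypoxia, changed by 0.00 ± 0.14 (adjusted p = 0.99) with quercetin against hypoxia, and rose by 0.49 ± 0.14 (adjusted p = 0.025) against normoxia. These rises were -0.02 (0.92) and 0.07 (0.68) scaled to spike-ins, 0.37 (0.18) with slide and 0.37 (0.23) with scan day as a block. The first did not pass without hypoxia replicate 1 (0.43, 0.061), nor the second without quercetin replicate 2 (0.41, 0.073) or 3 (0.49, 0.067). Ulk2, its paralog, rose by 0.34 ± 0.08 (adjusted p = 0.0061) and by 0.42 ± 0.08 (adjusted p = 0.0036) in the same comparisons, which were -0.17 (0.25) and 0.00 scaled to spike-ins, and the first was 0.31 (0.062) with slide as a block.

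Ulk3 and Ulk4, more distant members of the family, were near background. Ulk3 rose by 0.93 ± 0.29 (adjusted p = 0.022) in hypoxia although its groups overlapped, and changed by 0.23 (0.47) with slide as a block, 0.42 (0.24) scaled to spike-ins, and 0.78, 0.73 and 0.73 (0.076, 0.075 and 0.072) without normoxia replicate 1, normoxia replicate 2 or hypoxia replicate 3. Its second probe changed by 0.10 (0.74), and the mean of both by 0.51 (0.086). With quercetin it changed by -0.66 ± 0.29 (adjusted p = 0.084) against hypoxia and 0.27 ± 0.29 (adjusted p = 0.49) against normoxia, and without normoxia replicate 3 both passed (-0.66, 0.013, and 0.62, 0.035). Ulk4 read -3.22, -3.32 and -3.54 in normoxia, -3.53, -3.50 and -3.94 in hypoxia and -2.69, -2.85 and -2.73 with quercetin, and rose by 0.90 ± 0.14 (adjusted p = 8.5e-04) with quercetin against hypoxia and by 0.60 ± 0.14 (adjusted p = 0.0091) against normoxia. Its second probe went the other way in the same comparisons, falling by 1.27 (1.1e-04) and by 0.97 (7.9e-04), so the mean of both was -0.18 (0.22 and 0.25).

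The beclin complex genes moved the opposite way to most ULK genes. Becn1, the core of the complex, read 2.39, 2.76 and 2.27 in normoxia, 1.86, 1.85 and 1.93 in hypoxia and 2.39, 2.40 and 2.50 with quercetin. The hypoxia arrays lay below both other groups, which overlapped. Becn1 fell by 0.59 ± 0.13 (adjusted p = 0.0036) in hypoxia, rose by 0.55 ± 0.13 (adjusted p = 0.006) with quercetin against hypoxia and differed from normoxia by -0.05 ± 0.13 (adjusted p = 0.79). Its second probe gave -0.61 (0.0026), 0.61 (0.0027) and 0.01 (0.97). With slide as a block the fall was -0.39 (0.076).

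Uvrag, a Becn1 partner that also acts in endosome maturation, read 1.53, 1.14 and 1.62 in normoxia, 1.10, 1.07 and 1.06 in hypoxia and 1.65, 1.85 and 1.67 with quercetin. Hypoxia was again the lowest group and quercetin the highest. It fell by 0.35 ± 0.13 (adjusted p = 0.043) in hypoxia and rose by 0.65 ± 0.13 (adjusted p = 0.0031) with quercetin, and a second probe gave -0.74 (2.8e-04) and 0.95 (8.8e-05). The fall on the first probe did not pass when normoxia replicate 1 or 3, a hypoxia array, or quercetin replicate 1 or 3 was left out (-0.26 to -0.37, adjusted p from 0.055 to 0.13). The difference from normoxia with quercetin was 0.30 ± 0.13 (adjusted p = 0.1), and passed without normoxia replicate 3 (0.39, 0.048).

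Of the 4 genes that shape and feed the membrane, Wipi1 changed most. Wipi1, which binds the lipid made by the beclin complex, read -0.14, -0.43 and -0.11 in normoxia, 1.03, 0.95 and 1.00 in hypoxia and 0.06, 0.04 and 0.12 with quercetin. Hypoxia was far above both other groups, which were close to each other without overlapping. Wipi1 rose by 1.22 ± 0.10 (adjusted p = 2.4e-05), a 2.33-fold difference, and fell by 0.92 ± 0.10 (adjusted p = 1.3e-04) with quercetin. It stayed above normoxia by 0.30 ± 0.10 (adjusted p = 0.039), which was -0.11 (0.47) scaled to spike-ins, 0.19 (0.35) with scan day as a block, and did not pass when normoxia replicate 1 or an array of the other groups was left out (0.28 to 0.35, adjusted p from 0.052 to 0.12).

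Wipi2, its paralog, read 0.94, 1.29 and 0.79 in normoxia, 0.92, 0.81 and 0.87 in hypoxia and 0.62, 0.52 and 0.61 with quercetin, with the highest value in normoxia replicate 2. It changed by -0.14 ± 0.13 (adjusted p = 0.35) in hypoxia and by -0.28 ± 0.13 (adjusted p = 0.085) with quercetin against hypoxia, and fell by 0.43 ± 0.13 (adjusted p = 0.025) against normoxia. That fall was -0.21 with scan day as a block and did not pass when a quercetin array was left out (-0.39 to -0.45, adjusted p from 0.052 to 0.066). Without normoxia replicate 2 the change against hypoxia passed (-0.28, 0.011). A second Wipi2 probe fell by 0.35 (0.015) in hypoxia and by 0.35 (0.022) with quercetin against normoxia. It changed by 0.00 with quercetin against hypoxia. Atg2a, a lipid transfer protein, fell by 0.22 ± 0.08 (adjusted p = 0.05) in hypoxia, just under the threshold before rounding, a call that ended with slide as a block (-0.26, 0.12) and when 1 array was left out, unless that array was quercetin replicate 2 (-0.19 to -0.25, adjusted p from 0.051 to 0.15), and rose by 0.42 ± 0.08 (adjusted p = 0.003) with quercetin against hypoxia. Atg9a, the lipid scramblase, changed by 0.10, 0.06 and 0.16 in the 3 comparisons and passed in none (adjusted p from 0.31 to 0.67).

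In the conjugation machinery 4 of 9 genes were higher and 1 lower in hypoxia, beside 35.3% and 28.9% of all genes. With quercetin against hypoxia 2 were higher and 5 lower, beside 26.9% and 31.5% of all genes. Scaled to spike-ins the hypoxia counts were 0 and 4, beside 2625 and 10781 of all 22108 genes. Atg12, the ubiquitin-like protein, read 0.31, 0.73 and 0.24 in normoxia, 1.00, 1.00 and 0.93 in hypoxia and 0.41, 0.52 and 0.36 with quercetin. Hypoxia lay above both other groups. It rose by 0.55 ± 0.13 (adjusted p = 0.0065) in hypoxia and fell by 0.55 ± 0.13 (adjusted p = 0.0073) with quercetin, and the rise was 0.04 (0.82) scaled to spike-ins. A second Atg12 probe gave 0.22 (0.071) and 0.18 (0.14).

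Atg7, the activating enzyme of both conjugation systems, read -1.12, -0.83 and -1.08 in normoxia, -0.62, -0.65 and -0.64 in hypoxia and -0.94, -1.14 and -1.00 with quercetin. The hypoxia arrays were above the other groups and nearly identical. It rose by 0.37 ± 0.10 (adjusted p = 0.012), which was -0.14 (0.43) scaled to spike-ins, and fell by 0.39 ± 0.10 (adjusted p = 0.011) with quercetin, which was -0.30 (0.1) under that scaling. Atg5, the partner to which Atg12 is joined, read -0.43, -0.23 and -0.50 in normoxia, -0.29, -0.32 and -0.31 in hypoxia and -0.17, -0.27 and -0.08 with quercetin. The hypoxia arrays lay within the normoxia range, and the quercetin arrays lay just above hypoxia. It changed by 0.08 ± 0.10 (adjusted p = 0.5), 0.13 ± 0.10 (adjusted p = 0.27) and 0.21 ± 0.10 (adjusted p = 0.11); the last passed without normoxia replicate 2 (0.29, 0.022), and the first was -0.43 (0.022) scaled to spike-ins.

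The paralogs Atg16l1 and Atg16l2 went opposite ways on the brightest probe of each. Atg16l1 read 2.74, 2.79 and 2.83 in normoxia, 2.45, 2.36 and 2.45 in hypoxia and 2.80, 2.86 and 2.82 with quercetin; it fell by 0.37 ± 0.07 (adjusted p = 0.0028) in hypoxia and rose by 0.41 ± 0.07 (adjusted p = 0.0019) with quercetin, where its arrays overlapped normoxia. Atg16l2 read 1.50, 1.54 and 1.48 in normoxia, 1.94, 1.88 and 1.92 in hypoxia and 1.22, 0.96 and 1.17 with quercetin; it rose by 0.41 ± 0.09 (adjusted p = 0.004) in hypoxia, a change of -0.10 (0.54) scaled to spike-ins, and fell by 0.80 ± 0.09 (adjusted p = 1.3e-04) with quercetin and by 0.39 ± 0.09 (adjusted p = 0.0077) against normoxia, the last being -0.36 (0.078) with scan day as a block. A second Atg16l2 probe changed by 0.16 (0.28) in hypoxia. It fell by 0.86 (4.8e-04) with quercetin against hypoxia and by 0.70 (0.0021) against normoxia. Another probe of Atg16l1 fell by 0.54 (0.0092) in hypoxia and rose by 0.57 (0.0084) with quercetin against hypoxia. A dim further probe went the other way without passing (0.21, 0.8, and -0.43, 0.62), and the mean of the 3 probes changed by -0.23 (0.44) and 0.18 (0.56). On that dim probe hypoxia replicate 2 stood apart at -0.04. The other hypoxia arrays read -2.80 and -3.16, below normoxia at -2.40, -2.32 and -1.92.

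Atg10, the enzyme that joins Atg12 to Atg5, read 1.65, 1.58 and 1.43 in normoxia, 1.89, 1.77 and 1.84 in hypoxia and 1.21, 0.86 and 1.13 with quercetin. Quercetin was the lowest group, apart from the others. It changed by 0.28 ± 0.11 (adjusted p = 0.055) in hypoxia, which passed without quercetin replicate 2 (0.28, 0.022), fell by 0.76 ± 0.11 (adjusted p = 6.0e-04) with quercetin against hypoxia and fell by 0.48 ± 0.11 (adjusted p = 0.0089) against normoxia, which was -0.36 (0.13) with scan day as a block. Atg3, the enzyme that hands ATG8 proteins to lipid, rose by 0.32 ± 0.10 (adjusted p = 0.025) with quercetin against hypoxia and by 0.43 ± 0.10 (adjusted p = 0.009) against normoxia. The former did not pass when a hypoxia array or quercetin replicate 1 or 3 was left out (0.26 to 0.34, adjusted p from 0.053 to 0.092), and the latter was 0.01 (0.96) scaled to spike-ins. Atg4c, a protease of ATG8 proteins, changed by -0.16, 0.05 and -0.12 and passed in none of the comparisons (adjusted p from 0.32 to 0.79). Its second probe fell by 0.43 (0.0099) in hypoxia, and scaled to spike-ins Atg4c fell by 0.67 (0.0048) in hypoxia and by 0.53 (0.019) with quercetin against normoxia.

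The ATG8 family did not move 1 way in hypoxia, with 2 of 5 members higher and 2 lower, beside 35.3% and 28.9% of all genes. The GABARAP branch held calls in both directions. Gabarapl1, whose product coats the membrane, had the second largest increase and read 7.27, 6.24 and 7.36 in normoxia, 8.72, 8.61 and 8.71 in hypoxia and 7.22, 7.77 and 7.27 with quercetin. The hypoxia arrays lay well above all others, and normoxia replicate 2 and quercetin replicate 2 stood off their groups on opposite sides. Gabarapl1 rose by 1.72 ± 0.29 (adjusted p = 1.0e-03), a 3.30-fold difference, and fell by 1.26 ± 0.29 (adjusted p = 0.0056) with quercetin, the largest decrease among the members. Its difference from normoxia with quercetin was 0.46 ± 0.29 (adjusted p = 0.23). The fall was -0.78 (0.054) after quantile normalization. A second probe named Gabarapl1 lies on chromosome X in rn4, was dim, and changed by 0.36 (0.17) and 0.45 (0.1).

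Gabarap, the founder of the branch, read 6.39, 6.09 and 6.08 in normoxia, 6.89, 6.53 and 6.91 in hypoxia and 6.07, 6.44 and 6.10 with quercetin. The hypoxia arrays lay above both other groups, which overlapped. It rose by 0.59 ± 0.15 (adjusted p = 0.01) in hypoxia and fell by 0.57 ± 0.15 (adjusted p = 0.013) with quercetin, but after quantile normalization these changes were 0.11 (0.47) and -0.09 (0.56), and the rise was 0.08 (0.66) scaled to spike-ins. Gabarapl2 went the opposite way and read 5.10, 5.08 and 5.00 in normoxia, 4.63, 4.69 and 4.73 in hypoxia and 5.31, 5.45 and 5.28 with quercetin. Hypoxia was the lowest and quercetin the highest, with no overlap. It fell by 0.37 ± 0.08 (adjusted p = 0.0042), which was -0.32 (0.059) with slide as a block, and rose by 0.66 ± 0.08 (adjusted p = 2.3e-04) with quercetin. Against normoxia the rise was 0.29 ± 0.08 (adjusted p = 0.021), which was -0.13 (0.26) scaled to spike-ins, 0.35 (0.064) with scan day as a block and 0.26 (0.052) without normoxia replicate 3.

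Map1lc3a, the gene of the LC3A protein, read 5.95, 6.15 and 5.87 in normoxia, 5.81, 5.69 and 5.68 in hypoxia and 5.80, 5.66 and 5.80 with quercetin. The hypoxia and quercetin arrays overlapped, below all normoxia arrays. It fell by 0.26 ± 0.10 (adjusted p = 0.047) in hypoxia, but changed by -0.14 (0.42) with slide as a block and did not pass when a hypoxia array, normoxia replicate 1 or 2, or quercetin replicate 1 or 3 was left out (-0.18 to -0.30, adjusted p from 0.061 to 0.13). With quercetin against hypoxia it changed by 0.03 ± 0.10 (adjusted p = 0.84), and by 0.38 (0.019) after quantile normalization. Map1lc3b, whose lipid-bound product is the usual marker of autophagosomes, read 4.61, 4.69 and 4.50 in normoxia, 4.34, 4.48 and 4.28 in hypoxia and 4.15, 4.37 and 4.12 with quercetin on its brightest probe. All normoxia arrays lay above those of the other groups, which overlapped. On that probe it changed by -0.23 ± 0.10 (adjusted p = 0.079) in hypoxia and -0.15 ± 0.10 (adjusted p = 0.24) with quercetin against hypoxia, and fell by 0.38 ± 0.10 (adjusted p = 0.017) against normoxia, a fall of -0.28 (0.19) with scan day as a block, and -0.35 (0.055) and -0.34 (0.066) without quercetin replicate 1 or 3. The hypoxia change passed after quantile normalization (-0.45, 0.0051), scaled to spike-ins (-0.74, 3.2e-04) and without quercetin replicate 2 (-0.23, 0.05).

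Of the 3 cargo receptors, Nbr1 alone passed, in hypoxia and with quercetin against hypoxia. Sqstm1, the receptor p62 that is itself degraded by autophagy, read 4.79, 4.44 and 4.84 in normoxia, 4.73, 4.74 and 4.70 in hypoxia and 4.04, 4.77 and 4.13 with quercetin. The hypoxia arrays were within the normoxia range, and quercetin replicate 2 lay with them, above the other quercetin arrays. Sqstm1 changed by 0.03 ± 0.19 (adjusted p = 0.9), -0.41 ± 0.19 (adjusted p = 0.1) and -0.38 ± 0.19 (adjusted p = 0.15). Without quercetin replicate 2 the latter 2 passed, at -0.64 (0.0052) and -0.60 (0.0092), and scaled to spike-ins the first was -0.48 (0.026).

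Nbr1, a receptor that acts beside Sqstm1, read 0.63, 0.31 and 0.48 in normoxia, 0.75, 0.90 and 0.89 in hypoxia and 0.52, 0.63 and 0.55 with quercetin. The hypoxia arrays were above both other groups, which overlapped. It rose by 0.37 ± 0.10 (adjusted p = 0.012) in hypoxia, which was 0.36 (0.085) with slide as a block and -0.14 (0.3) scaled to spike-ins, and fell by 0.28 ± 0.10 (adjusted p = 0.043) with quercetin. The fall did not pass when a hypoxia array, normoxia replicate 3, or quercetin replicate 1 or 3 was left out (-0.25 to -0.33, adjusted p from 0.053 to 0.13). Optn, a receptor of mitochondria and protein aggregates, read 1.76, 0.92 and 1.68 in normoxia, 0.96, 1.01 and 0.99 in hypoxia and 0.84, 1.32 and 0.96 with quercetin. Normoxia replicate 2 lay just below the hypoxia arrays, far from its group. Optn changed by -0.47 ± 0.22 (adjusted p = 0.093), 0.06 ± 0.22 (adjusted p = 0.85) and -0.41 ± 0.22 (adjusted p = 0.17), and without normoxia replicate 2 the first and last passed, at -0.73 (0.0031) and -0.68 (0.0065).

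At the lysosome, both membrane glycoproteins ended above normoxia with quercetin. Lamp1, whose promoter is shown above, read 4.65, 4.47 and 4.49 in normoxia, 4.06, 3.93 and 4.06 in hypoxia and 4.84, 4.92 and 4.88 with quercetin. Hypoxia was the lowest group and quercetin the highest, with no overlap. Lamp1 fell by 0.52 ± 0.09 (adjusted p = 9.5e-04) in hypoxia, which was -0.47 (0.085) with normexp. It rose by 0.87 ± 0.09 (adjusted p = 7.6e-05) with quercetin against hypoxia. Against normoxia it rose by 0.34 ± 0.09 (adjusted p = 0.012), which was -0.07 (0.57) scaled to spike-ins and 0.39 (0.057) with scan day as a block.

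Lamp2, needed for fusion of autophagosomes and for chaperone-mediated autophagy, read 2.92, 2.38 and 2.80 in normoxia, 3.22, 3.23 and 3.20 in hypoxia and 3.37, 3.67 and 3.59 with quercetin. The groups followed each other upward from normoxia to hypoxia to quercetin without overlap. It rose by 0.51 ± 0.15 (adjusted p = 0.014) in hypoxia and by 0.84 ± 0.15 (adjusted p = 0.0022) with quercetin against normoxia, and the step between, 0.33 ± 0.15 (adjusted p = 0.086), did not pass, although it did without normoxia replicate 2 (0.33, 0.017) and after quantile normalization (0.51, 0.016). The rise in hypoxia was 0.00 (0.99) scaled to spike-ins and 0.41 (0.15) with slide as a block. Tfeb, the transcription factor of lysosomal genes, was dim and read -2.04, -1.90 and -1.84 in normoxia, -1.46, -1.68 and -1.55 in hypoxia and -2.25, -1.76 and -2.09 with quercetin. The hypoxia arrays lay above both other groups, which overlapped. It rose by 0.37 ± 0.13 (adjusted p = 0.041) in hypoxia and fell by 0.47 ± 0.13 (adjusted p = 0.016) with quercetin. The rise was -0.14 (0.33) scaled to spike-ins, 0.28 (0.28) with slide as a block, and did not pass when a normoxia array, hypoxia replicate 1 or 3, or quercetin replicate 3 was left out (0.31 to 0.41, adjusted p from 0.051 to 0.12). The fall did not pass without hypoxia replicate 1 or quercetin replicate 1 or 3 (-0.37 to -0.44, adjusted p from 0.053 to 0.058). With normexp the fall was -0.06 (0.88).

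Several genes had probes that disagreed, and the sequences of some whose match is split in the genome are shown because they name the stretch of transcript that was measured. Of 20 genes with more than 1 probe, 19 kept more than 1. Among 24 further probes, 9 lay over 0.5 from the printed change in hypoxia, 12 with quercetin against hypoxia and 3 with quercetin against normoxia. Positions are from the scanner files (rn4), and each 60-base probe spans more than its own length there.
Nbr1 upstream probe (chr10:90577728-90580740): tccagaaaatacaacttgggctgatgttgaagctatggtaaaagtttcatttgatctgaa
Nbr1 downstream probe (chr10:90593228-90594724): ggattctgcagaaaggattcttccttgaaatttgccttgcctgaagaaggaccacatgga
Atg4b (chr9:93059277-93060451): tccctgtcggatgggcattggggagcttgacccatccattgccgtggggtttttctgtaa
Optn second probe (chr17:84329541-84331368): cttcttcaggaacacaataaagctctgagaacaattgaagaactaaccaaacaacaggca
Map1lc3b further probe (chr19:51853554-51854448): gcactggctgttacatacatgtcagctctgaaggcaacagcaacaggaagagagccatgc
Nbr1's upstream probe is the one described above; its downstream probe read -0.83, -1.38 and -0.75 in normoxia, 0.53, 0.48 and 0.39 in hypoxia and -1.14, -0.51 and -1.01 with quercetin, a rise of 1.45 ± 0.21 (adjusted p = 4.0e-04) and a fall of 1.35 ± 0.21 (6.9e-04).

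Atg4b, the protease that primes ATG8 proteins, gave opposite calls on its 2 probes. The probe shown read -0.10, -0.04 and 0.06 in normoxia, 0.79, 0.72 and 0.61 in hypoxia and 0.28, 0.38 and 0.09 with quercetin, a rise of 0.73 ± 0.10 (adjusted p = 3.7e-04) in hypoxia and a fall of 0.45 ± 0.10 (adjusted p = 0.0052) with quercetin. The second Atg4b probe, at chr9:93063546-93063605, read 0.05, -0.09 and 0.03, then -0.40, -0.51 and -0.54, then -0.15, -0.13 and -0.03, a fall of 0.48 ± 0.08 (0.0012) and a rise of 0.38 ± 0.08 (0.0049). Both pairs of calls passed in opposite directions, and the mean of both probes changed by 0.12 (0.21) and -0.04 (0.71).

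Optn and Map1lc3b also depended on the probe. The second Optn probe read 0.79, -0.06 and 0.72 in normoxia, 1.26, 1.24 and 1.17 in hypoxia and -0.39, 0.50 and -0.24 with quercetin, a rise of 0.74 ± 0.28 (0.043) and a fall of 1.27 ± 0.28 (0.0046), whereas the brighter probe did not pass. For Map1lc3b the probe shown and another fell by 0.59 ± 0.09 (6.6e-04) and 0.56 ± 0.08 (4.5e-04) in hypoxia and rose by 0.96 ± 0.09 (6.0e-05) and 0.94 ± 0.08 (3.8e-05) with quercetin. With quercetin against normoxia these 2 probes rose by 0.36 ± 0.09 (0.013) and 0.37 ± 0.08 (0.0067), whereas the brightest probe fell. The mean of the 3 probes changed by -0.46 (9.9e-04) and 0.58 (3.5e-04), and by 0.12 (0.25) with quercetin against normoxia. The probes of Sqstm1 and Atg13 lay within 0.5 of the printed changes in all 3 comparisons, although 1 Sqstm1 probe passed as lower with quercetin, at -0.55 (0.0059) against hypoxia and -0.58 (0.0065) against normoxia. Of 52 member probes with a strand in both rn4 and the RefSeq annotation 49 had the same strand; Wipi1, Lamp2 and the second Gabarapl1 probe did not, and the builds differ.

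**Figure D3:**
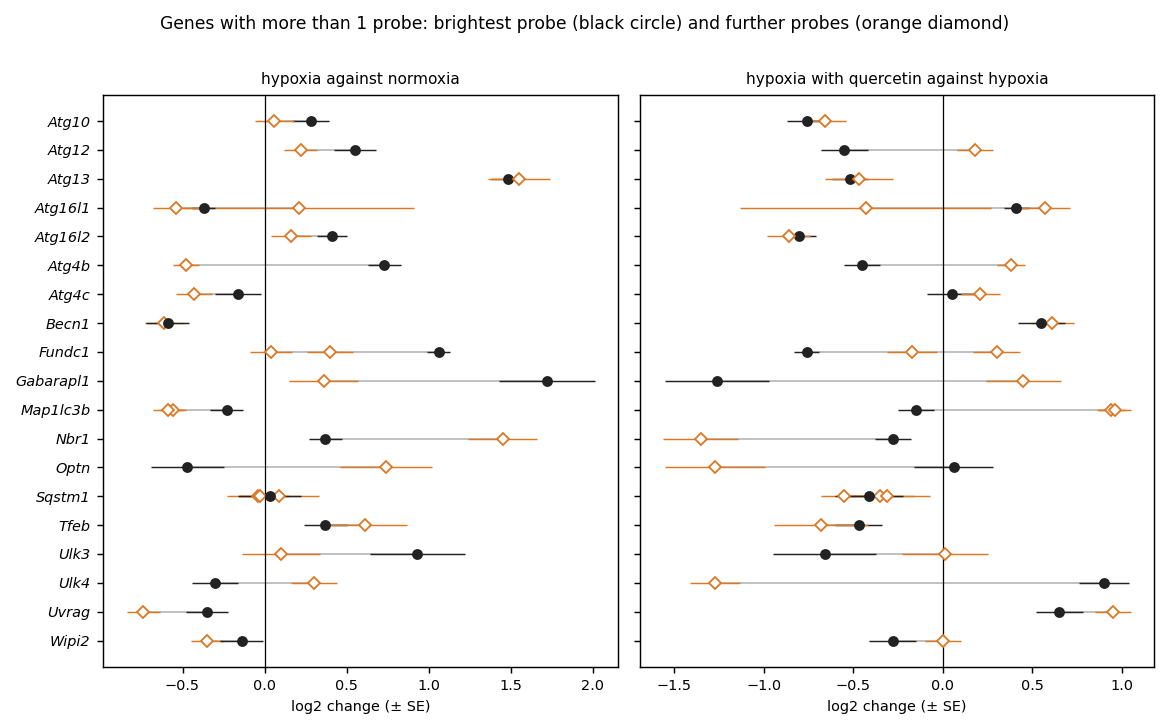
Changes (log2, horizontal axis, ± standard error) of every kept probe for the 19 genes with more than 1, with the brightest probe as a black circle and further probes as orange diamonds. Atg13, Becn1 and Sqstm1 probes coincide, while Atg4b, Ulk4, Optn, Nbr1, Gabarapl1 and Map1lc3b probes are far apart, on both sides of 0 for Atg4b, with 0.73 and -0.48 in hypoxia.

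Genes around the pathway were examined as lists chosen by function. The hypoxia response genes, chosen as a check of the treatment, were higher in 14 of 16 in hypoxia with none lower (median 1.85), and 8 were lower and none higher with quercetin against hypoxia (median -0.89). P4ha2, a collagen prolyl hydroxylase, rose by 1.89 ± 0.19 (adjusted p = 5.9e-05), and the glycolytic enzyme gene Pgk1 rose by 2.43 ± 0.31 (adjusted p = 2.5e-04) and fell by 1.49 ± 0.31 (adjusted p = 0.0039). With slide as a block 6 of the 16 passed, all higher, with a median of 1.38. Normoxia replicate 2 was lower in these genes than the other normoxia arrays, with a median of -1.96 around each gene's mean against -0.51 and -0.43; without it 14 were higher in hypoxia with a median of 1.41, and 12 were lower with quercetin against hypoxia.

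Among lysosomal hydrolases and membrane proteins, 23 of 42 were lower in hypoxia and 6 higher, beside 28.9% and 35.3% of all genes. Their median was -0.29 beside 0.10 for all genes. With quercetin against hypoxia 23 were higher and 4 lower, beside 26.9% and 31.5% of all genes, with a median of 0.37 beside -0.08. Gusb, a glucuronidase, fell by 2.54 ± 0.16 (adjusted p = 7.3e-06) in hypoxia, and the cathepsin gene Ctsb fell by 1.02 ± 0.08 (adjusted p = 2.5e-05) and rose by 0.96 ± 0.08 (adjusted p = 4.2e-05) with quercetin. Ostm1, a subunit of the lysosomal chloride exchanger, fell by 2.04 ± 0.17 (adjusted p = 2.4e-05) and rose by 2.48 ± 0.17 (adjusted p = 1.3e-05), and Mcoln1, the lysosomal calcium channel, rose by 1.44 ± 0.10 (adjusted p = 1.1e-05). Ctsk, a collagen-degrading cathepsin, fell by 1.85 ± 0.14 (adjusted p = 1.8e-05) in hypoxia and by 2.69 ± 0.14 (adjusted p = 1.0e-05) with quercetin against normoxia. With slide as a block 18 were lower and 2 higher in hypoxia, and scaled to spike-ins 34 were lower and none higher. With quercetin against normoxia 13 were higher and 8 lower, beside 23.0% and 21.3% of all genes. Scaled to spike-ins the 13 and 8 became 1 and 19. Of all 22108 genes under that scaling, 2625 were higher and 10781 lower in hypoxia, and 1599 and 9952 with quercetin against normoxia.

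Upstream kinases and regulators were mixed, 14 of 33 higher and 10 lower in hypoxia, and 9 higher and 10 lower with quercetin against hypoxia. The shares called were 72.7% and 57.6%, beside 64.2% and 58.4% of all genes. Mtor, the kinase that restrains autophagy, fell by 1.30 ± 0.08 (adjusted p = 7.2e-06) in hypoxia and rose by 1.29 ± 0.08 (adjusted p = 1.0e-05) with quercetin. Prkab2, a subunit of the energy sensor AMPK, rose by 3.37 ± 0.22 (adjusted p = 7.6e-06) and fell by 2.60 ± 0.22 (adjusted p = 3.2e-05). Sesn3, a sestrin that restrains mTOR complex 1, rose by 2.70 ± 0.17 (adjusted p = 1.1e-05) with quercetin against hypoxia and by 1.50 ± 0.17 (adjusted p = 2.9e-04) against normoxia. Tp53inp2, a protein that recruits ATG8 members, fell by 1.74 ± 0.15 (adjusted p = 2.6e-05) and rose by 1.91 ± 0.15 (adjusted p = 2.1e-05).

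In the other 4 lists between 46.7% and 75% of genes passed in these 2 comparisons, beside 64.2% and 58.4% of all genes. Regulators of the lipid kinase complex were higher in 8 and lower in 4 of 20 in hypoxia, with Ambra1, a Becn1 activator, up by 1.06 ± 0.12 (adjusted p = 1.3e-04), and higher in 8 and lower in 7 with quercetin, where Ambra1 fell by 0.71 ± 0.12 (adjusted p = 0.0014) and the Becn1 inhibitor Bcl2 rose by 1.36 ± 0.17 (adjusted p = 2.3e-04). With quercetin the mean of Ambra1's probes changed by -0.16 (0.24), and with normexp Ambra1 changed by -0.50 (0.071) and Bcl2 by 0.72 (0.16). Fusion genes were higher in 7 and lower in 5 of 23, then higher in 7 and lower in 6. Snap29, a SNARE of autophagosome fusion, fell by 2.15 ± 0.10 (adjusted p = 2.7e-06) and rose by 1.97 ± 0.10 (adjusted p = 4.7e-06). Other cargo receptors were higher in 8 and lower in 3 of 19, then higher in 4 and lower in 8. Ncoa4, the ferritin receptor, rose by 1.17 ± 0.11 (adjusted p = 4.3e-05) and fell by 0.95 ± 0.11 (adjusted p = 1.6e-04). Mitochondrial dynamics genes were higher in 10 and lower in 7 of 30, then higher in 5 and lower in 9. The outer-membrane channel gene Vdac1 rose by 1.47 ± 0.18 (adjusted p = 1.8e-04) in hypoxia, and Tspo, an outer-membrane cholesterol-binding protein, fell by 1.22 ± 0.10 (adjusted p = 3.0e-05) with quercetin. Scaled to spike-ins, each of these 5 lists, kinases included, had more genes lower than higher in hypoxia.

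**Figure D4:**
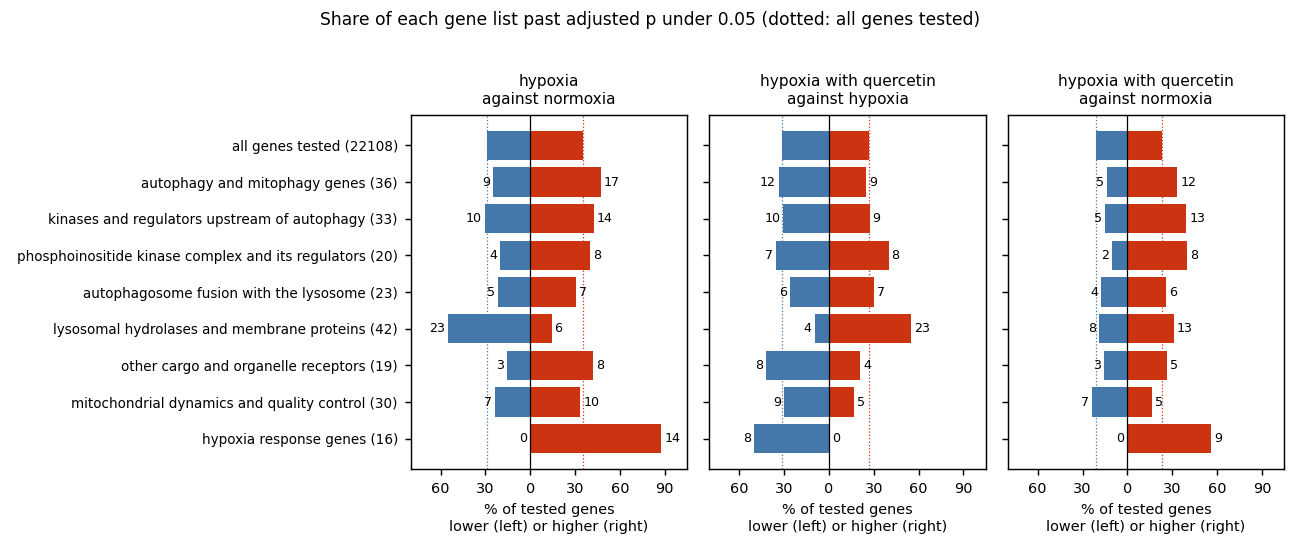
Share of the tested genes of each list that passed an adjusted p of 0.05 as higher (red, right) or lower (blue, left), with the numbers of genes beside the bars and the share over all 22108 genes as dotted lines. The lysosomal list has 23 of 42 lower in hypoxia and 23 of 42 higher with quercetin against hypoxia, and the hypoxia response list 14 of 16 higher in hypoxia. The autophagy and mitophagy genes lie near the dotted lines with quercetin against hypoxia, and beyond the red line in the other comparisons.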

How the data were processed

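RNA of 9 samples was measured on 1-colour arrays; the labels' protocol names a kit for miRNA and the file headers a gene expression protocol, and the arrays were read as mRNA arrays. Intensities are the processed signals that the authors deposited, background-corrected by Agilent Feature Extraction 10.7.3.1, per the file headers. They were divided by the array's 75th percentile over non-control probes as log2 differences; outlier spots were left out and spots of 1 probe averaged. A probe was kept (65% of 41012) if some group had it well above background on each of its 3 arrays, and the probe with the highest mean stood for its gene. Group means were fitted with limma 3.58.1 in R 4.3.3 and p-values adjusted by the Benjamini-Hochberg method over 22108 genes, at 0.05. The deposited log2 value table was used as an alternative. Gene names follow RefSeq GRCr8 where they matched. The number of arrays limits the precision. The fit was tested on simulated data in which 200 of 22108 genes were changed, far fewer than were called here. It recovered 17.9% to 20.9% of 1.5-fold, 64.2% to 70.1% of 2-fold and 90.9% to 93.9% of 4-fold changes. Of the calls in those data 3.97% to 9.3% were false. The members and lists were chosen with earlier results of these data known. Every member could be named; array values are given for 22 members chosen by name and for up to 6 with the largest increase and decrease per comparison; of related lists, up to 4 genes per list and comparison with the smallest adjusted p; further probes, where over 0.5 away. By exception, 1 tested member that these rules would show is not reported here.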

Additional observations from a re-analysis of the deposited data

How the results depend on the processing

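Median scaling, quantile normalization, the deposited value table and signal on all 9 arrays left each count of called members within 1.5 times its value. In hypoxia against normoxia the 17 higher and 9 lower members became 8 and 1 with normexp, 5 and 18 scaled to spike-ins and 9 and 3 with slide as a block; without the filter on dim probes 5 were lower, and leaving out 1 array gave 15 to 18 higher and 4 to 10 lower. Of all 22108 genes, 3549 were higher and 3172 lower in hypoxia with normexp, and 2625 and 10781 scaled to spike-ins. With quercetin against hypoxia normexp left 4 members higher, beside 2822 of all genes, and leaving out 1 array gave 8 to 10 members higher and 10 to 14 lower. With quercetin against normoxia the 12 higher and 5 lower members became 2 and 1 with normexp, beside 1383 and 1788 of all 22108 genes. Scaled to spike-ins these members became 3 and 16, beside 1599 and 9952 of all genes. With scan day as a block limma gave 6 higher and 0 lower, where 11 members had an unadjusted p under 0.05 in either direction; 3 were lower without the filter or with only the 2 groups fitted, and leaving out 1 array gave 9 to 14 higher and 2 to 6 lower. The cause was not tested. Replicate numbers did not pair the samples, since same-numbered deviations correlated at -0.27 to 0.02; a replicate block gave 22, 20 and 12 calls in the 3 comparisons, with 3 lower in the last.

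The median change of the members reversed to -0.31 in hypoxia and -0.21 with quercetin against normoxia when scaled to spike-ins, and to 0.02 with quercetin against hypoxia under spike-in scaling, quantile normalization and the deposited table. Single genes reversed under spike-in scaling in hypoxia against normoxia, to -0.10 for Atg16l2, -0.40 for Atg3, -0.43 for Atg5, -0.14 for Atg7, -0.41 for Atg9a, -0.14 for Nbr1, -0.48 for Sqstm1, -0.14 for Tfeb, -0.02 for Ulk1 and -0.17 for Ulk2. With quercetin against normoxia they reversed to -0.41 for Atg12, -0.38 for Atg16l1, -0.12 for Fundc1, -0.40 for Gabarap, -0.13 for Gabarapl2, -0.07 for Lamp1, -0.32 for Nbr1, 0.00 for Ulk2 and -0.11 for Wipi1. The mean of a gene's probes gave 0.58 and 0.12 for Map1lc3b and -0.18 and -0.18 for Ulk4 with quercetin against hypoxia and normoxia.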
